A study of Mus musculus with 34 samples.

Results

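The transcripts of 10 chemokine ligands were followed in the hippocampus of 20 mice. These ligands, *Ccl2*, *Ccl3*, *Ccl4*, *Ccl5*, *Ccl6*, *Ccl9*, *Ccl12*, *Cxcl10*, *Cxcl12* and *Cxcl16*, were taken by symbol from the 23951 genes listed in every deposited file, and all 10 were present. There were 4 control libraries of genotype Hdac1f/f, 5 *Hdac1* cKO libraries that also carried Nestin-Cre, 6 5XFAD libraries in which Hdac1f/f was combined with 5XFAD, and 5 compound libraries that carried Hdac1f/f, Nestin-Cre and 5XFAD together. The floxed *Hdac1* alleles were therefore carried by all 4 groups, controls included. 5XFAD and compound mice were 13 months old, whereas the labels give 13 to 14 months for control and *Hdac1* cKO mice, and the aged mice of the study were male. Nestin-Cre deletes *Hdac1* in neurons and astrocytes, so microglia are not a target of the deletion. The 5XFAD transgenes are driven by the neuronal Thy1 promoter, and the mice deposit amyloid. Cortical nuclei sorted for GFAP, an astrocyte protein, were a second source, with 3 control and 4 *Hdac1* cKO libraries and no 5XFAD counterpart (a further GFAP+ control sample, number 2, was not analysed here). Each hippocampal library is treated here as 1 mouse. The labels number them within a genotype without naming the animals, so p-values measure the spread between these libraries.

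Chemokines are small secreted proteins that bind G-protein-coupled receptors on leukocytes and glia and direct cell movement along their gradients. CC ligands mainly attract monocytes, macrophages and T cells, whereas CXC ligands fall into inducible members such as *Cxcl10* and homeostatic members such as *Cxcl12*. In the brain, microglia and perivascular macrophages are known sources of the CC ligands, and *Ccl3*, *Ccl4* and *Ccl6* are commonly seen in microglia near amyloid plaques.

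Levels are in FPKM, the fragments of a gene scaled to transcript length and library size, as computed by the authors. Because the hippocampal libraries hold 3′ ends, dividing by transcript length makes the order between genes approximate, while a fold change of 1 gene between mice does not depend on its length. For 9 of the 10 ligands, all but *Cxcl12*, the FPKM values were whole multiples of what 1 fragment contributes, within a tolerance of 0.05 of a fragment, and these fragment numbers give the depth behind each value, for counting error only. Summed over the 20 libraries they ranged from 41 fragments for *Ccl2* to 1989 for *Ccl6*. Relative depth ran from 0.754 to 2.35 times that of control 1, with medians of 1.67 in 5XFAD and 1.03 in compound libraries. *Hdac1* itself was 7.93 ± 2.20 FPKM (SD, n = 4) in control, 2.74 ± 0.279 (n = 5) in *Hdac1* cKO, 8.23 ± 1.56 (n = 6) in 5XFAD and 1.92 ± 0.516 (n = 5) in compound mice, and no *Hdac1* cKO or compound library overlapped its Cre-negative counterpart group. In GFAP+ nuclei *Hdac1* ranged from 9.91 to 22.3 FPKM in control and from 5.80 to 11.5 in *Hdac1* cKO libraries, so these groups overlapped. The summed FPKM of 7 neuron markers was between 1202 and 1609 in every hippocampal library, and all 12 microglia markers were above 0 in at least 1 library of every group. Whether the libraries of control and *Hdac1* cKO mice were prepared together with those of 5XFAD and compound mice is not given in the sources used here, so a difference in preparation and the 5XFAD genotype cannot be told apart. Comparisons of compound with 5XFAD mice and of *Hdac1* cKO with control mice do not cross that line.

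All 10 ligands together summed to 47.7 ± 11.5 FPKM in control, 40.4 ± 6.11 in *Hdac1* cKO, 107 ± 15.3 in 5XFAD and 141 ± 35.3 in compound mice (SD, n = 4, 5, 6 and 5). The lowest 5XFAD library, at 83.3 FPKM, lay above the highest library without 5XFAD, at 61.9. The make-up of this sum also differed. In control mice *Cxcl12* was the most abundant ligand and contributed 51.0 ± 10.3% of the sum, followed by *Ccl6*, *Ccl5* and *Ccl12*, whose ranges overlap, while *Ccl3* and *Ccl4* contributed 0.977 ± 1.01% and 1.59 ± 3.19%. In *Hdac1* cKO mice *Cxcl12* held 55.7 ± 4.54%. In 5XFAD mice *Ccl6* came first at 23.1 ± 3.81%, *Cxcl12* held 19.1 ± 2.90%, and *Ccl3* and *Ccl4* held 11.3 ± 3.84% and 10.6 ± 3.07%. In compound mice *Ccl4* was first at 20.7 ± 5.15%, ahead of *Ccl6* at 18.3 ± 3.66%, *Ccl12* at 15.4 ± 9.21% and *Ccl3* at 15.1 ± 4.01%, ranges that overlap one another.

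**Figure D1:**
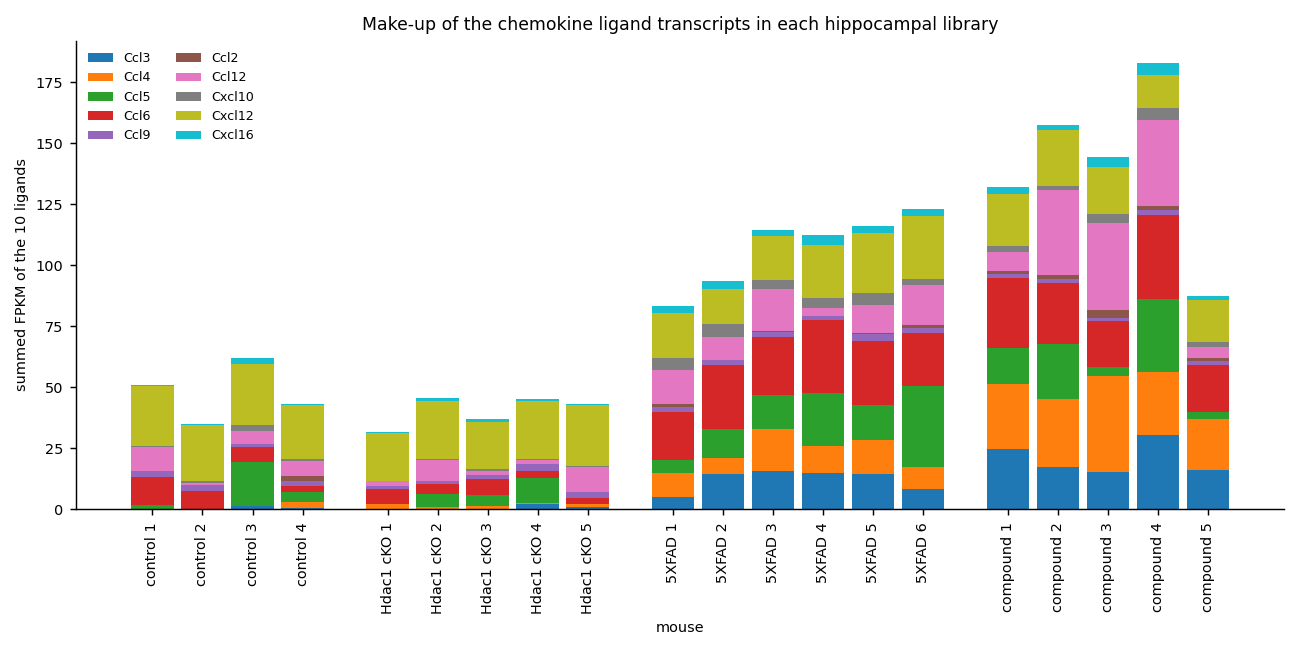
Stacked bars give the FPKM of each of the 10 ligands in each of the 20 hippocampal libraries (y axis, summed FPKM; x axis, mouse by group). Libraries without 5XFAD reach at most 61.9 FPKM with *Cxcl12* as the largest segment of each, whereas 5XFAD and compound libraries run from 83.3 to 183 FPKM with large *Ccl3*, *Ccl4* and *Ccl6* segments.

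Differences with 5XFAD were measured in mice with and without neural *Hdac1*. In 5XFAD against control mice, 5 of the 10 ligands, *Ccl3*, *Ccl4*, *Ccl6*, *Cxcl10* and *Cxcl16*, were higher at a limma adjusted p under 0.05 (p-values adjusted over all genes tested), beside 0.667% of all 14402 genes tested that were called higher. The median log2 fold change over the 10 ligands was 1.21, beside -0.01 over all genes tested. In compound against *Hdac1* cKO mice the same 5 and *Ccl2* were higher, 6 of 10, beside 1.42% of 14195 genes, with a median of 1.63 beside -0.01. *Ccl2* and *Cxcl10* averaged 0.175 and 0.465 FPKM in *Hdac1* cKO mice and so passed the filter at a mean of 0.5 FPKM only through the compound group, where they were high. With no filter the same 6 were called. Against control, compound mice had 3 of 10 ligands called, *Ccl3*, *Ccl4* and *Ccl6*, beside 0.627% of 14348 genes. The *Ccl6* call (log2 fold change 1.83, limma adjusted p = 0.0277) was lost when control 2 or 3 or compound 1, 2 or 4 was left out. Over the 9 fits that each left out 1 mouse, its adjusted p ran from 0.00807 to 0.0951 and its log2 fold change from 1.51 to 2.08. No ligand was called lower in any of these comparisons. The groups did not overlap for 4 of 10 ligands in 5XFAD against control (1.92% of all genes tested were higher without overlap) and for 6 of 10 in compound against *Hdac1* cKO (2.44%). *Hdac1* loss without 5XFAD gave no call among the 9 ligands tested (0.154% of 14265 genes called in either direction).

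The comparison of compound with 5XFAD mice asks what *Hdac1* loss adds in the presence of 5XFAD. By limma none of the 10 ligands passed an adjusted p of 0.05, in a comparison that called 1 gene of 14326 (0.00698%), which was *Hdac1*. With the study's thresholds, 1.5-fold or more and p under 0.05 without adjustment, 3 of 10 ligands were higher in compound mice, *Ccl2*, *Ccl3* and *Ccl4*, beside 0.691% of all genes tested, and none was lower. *Ccl4* was the 1 ligand of the 10 that was higher in compound mice without overlap, beside 0.391% of all genes. The median log2 fold change over the 10 ligands was -0.01, beside -0.00 over all genes tested, and 947 genes had an unadjusted p under 0.05.

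**Figure D2:**
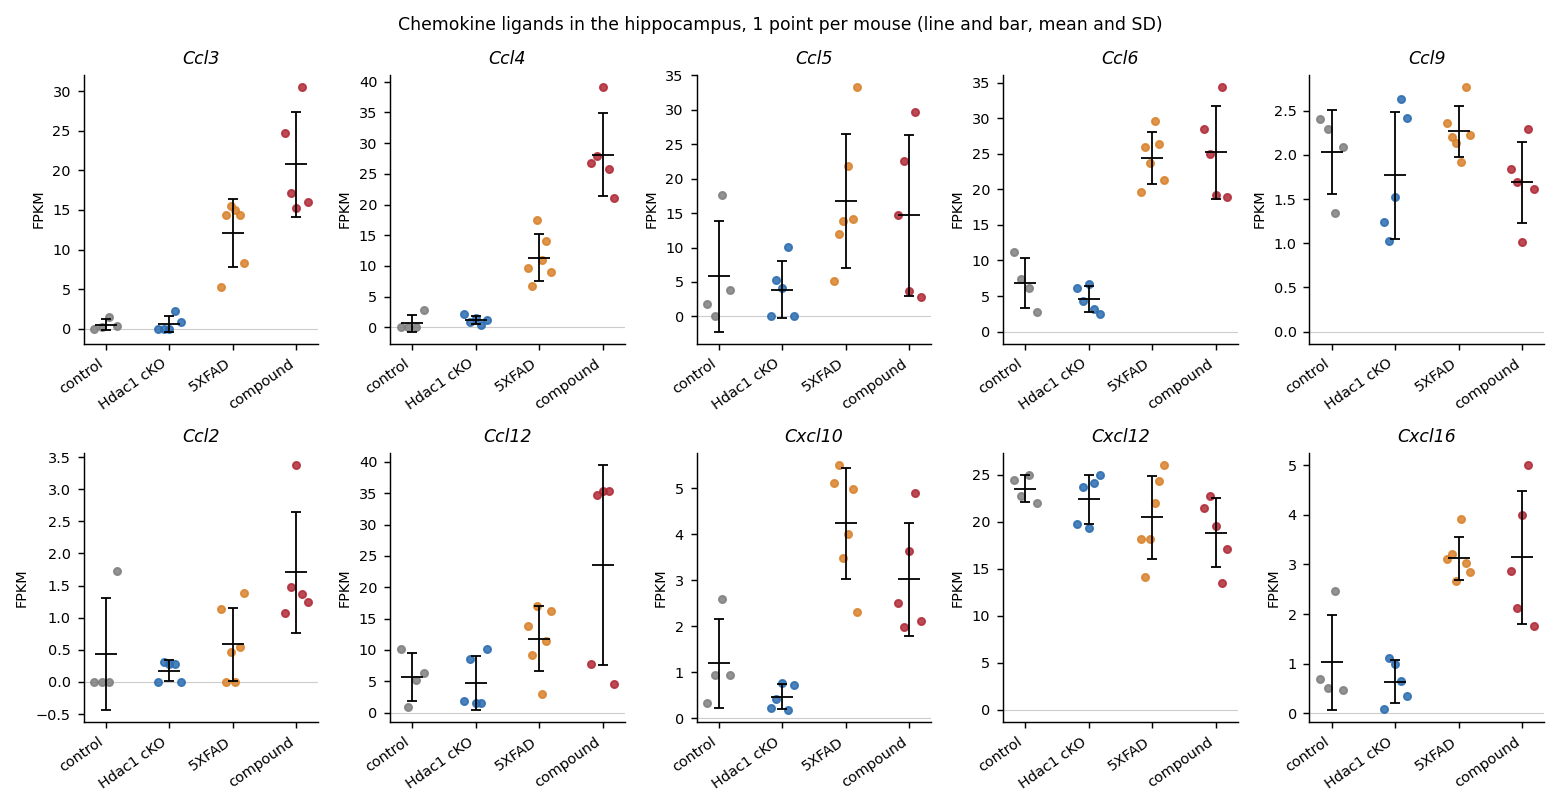
FPKM of each ligand (y axis, linear, own scale per panel) in each hippocampal mouse (points) by group (x axis), with the mean and SD as black bars. For *Ccl3*, *Ccl4* and *Ccl6* every 5XFAD and compound mouse lies above every control and *Hdac1* cKO mouse, *Ccl4* is higher in all 5 compound mice than in any 5XFAD mouse, and *Ccl9* and *Cxcl12* overlap in all 4 groups.

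*Ccl3* (MIP-1α, a ligand of *Ccr1* made by activated macrophages and microglia) lies on chr11:83461346-83462857, minus strand (mm9). It was 0, 0.238, 1.48 and 0.356 FPKM in the control mice, from 5 fragments in all, and 0, 0, 0, 2.24 and 0.888 in the *Hdac1* cKO mice, from 12 fragments. In 5XFAD mice the lowest value was 5.21, the median 14.4 and the highest 15.5 FPKM, and the compound mice had 24.7, 17.2, 15.3, 30.6 and 16.1. Every 5XFAD-carrying library was thus above every library without the transgenes, and 4 of the 5 compound libraries were above the highest 5XFAD library. Means were 12.1 ± 4.30 FPKM (SD, n = 6) in 5XFAD and 0.519 ± 0.659 (n = 4) in control mice, a 23.3-fold ratio that was 61.1-fold without control mouse 3, and on the log2(FPKM + 1) scale the rise was 3.11 (SE 0.31, limma adjusted p = 0.000227). Compound against *Hdac1* cKO mice gave 3.87 on that scale (SE 0.34, adjusted p = 8.19e-05). Compound against 5XFAD mice had a ratio of mean FPKM of 1.71 and a log2 fold change of 0.76 (95% interval 0.18 to 1.35, unadjusted p = 0.0146, adjusted p = 0.734), and the two-sided exact permutation p was 0.00866.

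*Ccl4* (MIP-1β, a ligand closely related to *Ccl3*) lies next to *Ccl3* on chr11:83476086-83478185, plus strand (mm9). Control mice had 0, 0, 0 and 2.74 FPKM, the last from 6 fragments, and a count of 0 allows up to 2.01 FPKM in the shallowest of these libraries, taking 3 fragments as the limit. The *Hdac1* cKO mice had 2.23, 0.836, 1.5, 0.359 and 1.14 FPKM, from 16 fragments in all. In 5XFAD mice the values ran from 6.75 through a median of 10.3 to 17.4 FPKM, and compound mice had 26.7, 27.9, 39.2, 25.8 and 21.1. The 4 groups therefore formed 3 levels, with control and *Hdac1* cKO mice overlapping, 5XFAD mice above both, and all 5 compound mice above all 6 5XFAD mice. The log2 fold change was 3.09 in 5XFAD against control (SE 0.38, limma adjusted p = 0.00204) and 3.75 in compound against *Hdac1* cKO mice (SE 0.22, adjusted p = 9.17e-07). Mean FPKM was 28.1 ± 6.70 (SD, n = 5) in compound and 11.3 ± 3.85 (n = 6) in 5XFAD mice, a ratio of 2.48 and a log2 fold change of 1.27 (95% interval 0.83 to 1.71). This difference had an unadjusted limma p of 2.48e-05 and an adjusted p of 0.0888, and its two-sided exact permutation p of 0.00433 is the smallest that 5 against 6 mice allow. Without 5XFAD mouse 3, whose 17.4 FPKM was the highest of its group, the adjusted p was 0.0127, and over the fits that each left out 1 mouse it ran from 0.0127 to 0.331 with log2 fold changes of 1.15 to 1.40. In number of fragments, *Ccl4* rested on 15 to 39 per 5XFAD library and 38 to 86 per compound library, although the compound libraries were on the median less deep.

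*Ccl5* (RANTES, a ligand of *Ccr1* and *Ccr3*, abundant in T and NK cells and induced in glia) lies on chr11:83339280-83344020, minus strand (mm9). It was 1.87, 0, 17.7 and 3.82 FPKM in control mice and 0, 5.24, 4.18, 10.01 and 0 in *Hdac1* cKO mice. 5XFAD mice had 5.18 as the lowest, 14.0 as the median and 33.3 as the highest value, and compound mice had 14.7, 22.6, 3.72, 29.6 and 2.88. The groups overlapped throughout, with 1 control library higher than 3 of the 5 compound libraries. The log2 fold change of 1.95 in 5XFAD against control (SE 0.80, adjusted p = 0.433) did not pass, nor did 1.84 in compound against *Hdac1* cKO (SE 0.92, adjusted p = 0.557). Compound against 5XFAD mice gave -0.43 with a 95% interval of -1.88 to 1.03, which spans both directions widely.

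*Ccl6* and *Ccl9*, a pair of rodent CC ligands of *Ccr1*, are neighbours on chromosome 11, *Ccl9* at chr11:83386421-83392138 and *Ccl6* at chr11:83401384-83406589, both on the minus strand (mm9), and of the pair *Ccl6* alone was called. *Ccl6* had 11.2, 7.38, 6.12 and 2.71 FPKM in control mice and 6.12, 4.34, 6.67, 3.20 and 2.54 in *Hdac1* cKO mice. In 5XFAD mice it ran from 19.6 through a median of 24.9 to 29.6 FPKM, and compound mice had 28.4, 25.0, 19.1, 34.4 and 19.0. All 11 mice with 5XFAD were above all 9 without, and 5XFAD and compound mice overlapped. The rise was 1.81 in 5XFAD against control (SE 0.26, limma adjusted p = 0.00479) and 2.26 in compound against *Hdac1* cKO mice (SE 0.23, adjusted p = 0.000171). Compound and 5XFAD mice differed by 0.02 with a 95% interval of -0.31 to 0.35 on the log2 scale, the narrowest interval of that comparison after that of *Ccl9*.

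*Ccl9* was between 1.35 and 2.41 FPKM in control, 1.02 and 2.64 in *Hdac1* cKO, 1.92 and 2.77 in 5XFAD and 1.02 and 2.30 in compound mice. No group stood apart. In 5XFAD against control its log2 fold change was 0.12 (95% interval -0.21 to 0.45) and in compound against *Hdac1* cKO -0.02 (-0.45 to 0.41). Compound against 5XFAD mice gave -0.29 (-0.61 to 0.02, limma adjusted p = 0.742), with overlapping groups and a ratio of mean FPKM of 0.745 (exact permutation p = 0.0260, not adjusted).

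To set sequence beside these values, 250 bases before the transcription start are shown for *Ccl6* and *Ccl9*, and for *Ccl3* and *Cxcl10*, which rose. They are read 5′ to 3′ on the strand of the gene from RefSeq promoters (GRCm38.p6), matched base for base to mm9 at chr11:83406590-83406839 (*Ccl6*), chr11:83392139-83392388 (*Ccl9*), chr11:83462881-83463130 (*Ccl3*) and chr5:92777916-92778165 (*Cxcl10*), all minus strand. The *Ccl3* stretch does not adjoin the gene position given above, which ends at 83462857, so the start used for it differs. Distances for *Ccl3* are counted from the end of its stretch. Capitals mark matches, on either strand, to a κB-type motif (GGNNNTTCC), an interferon-response type motif (GAAANNGAA) or an AP-1 motif (TGA and TCA parted by any 1 base).
Ccl6: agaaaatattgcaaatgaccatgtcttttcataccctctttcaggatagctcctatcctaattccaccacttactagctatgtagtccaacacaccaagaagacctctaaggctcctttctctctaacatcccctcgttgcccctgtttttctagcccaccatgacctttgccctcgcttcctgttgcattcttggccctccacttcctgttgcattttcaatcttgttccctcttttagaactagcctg
Ccl9: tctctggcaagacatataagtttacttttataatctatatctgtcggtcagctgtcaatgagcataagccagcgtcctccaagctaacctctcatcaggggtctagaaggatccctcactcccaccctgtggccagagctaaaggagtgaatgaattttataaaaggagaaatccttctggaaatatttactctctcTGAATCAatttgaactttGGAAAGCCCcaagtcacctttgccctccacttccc
Ccl3: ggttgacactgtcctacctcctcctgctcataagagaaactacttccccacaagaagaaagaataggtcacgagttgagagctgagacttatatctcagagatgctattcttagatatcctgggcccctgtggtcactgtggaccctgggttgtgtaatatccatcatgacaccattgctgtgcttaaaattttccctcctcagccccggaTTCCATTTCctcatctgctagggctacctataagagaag
Cxcl10: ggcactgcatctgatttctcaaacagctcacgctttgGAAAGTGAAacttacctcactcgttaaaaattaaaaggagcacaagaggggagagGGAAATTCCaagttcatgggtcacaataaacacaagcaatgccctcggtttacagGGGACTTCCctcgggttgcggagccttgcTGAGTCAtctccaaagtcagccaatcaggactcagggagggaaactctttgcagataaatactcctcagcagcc
Sequences were matched for 6 of the 10 ligands, *Ccl3*, *Ccl6*, *Ccl9*, *Ccl12*, *Cxcl10* and *Cxcl12*. The *Cxcl10* stretch held κB-type matches at 158 (GGAAATTCC) and 103 bases (GGGACTTCC) before the start, an interferon-response type match at 213 bases (GAAAGTGAA) and an AP-1 match at 74 bases. The *Ccl3* stretch held 1 interferon-response type match, at 39 bases, read on the opposite strand. *Ccl9*, which did not rise, held a κB-type match at 35 bases and an AP-1 match at 53 bases, whereas *Ccl6*, which rose, held none of these letters in this window. *Ccl12* had a κB-type match at 17 bases and *Cxcl12* had no match. A PU.1-type motif (GAGGAAGT) was found in none of the 6. Among all 32851 RefSeq promoter stretches of this length, 15.7% held the κB-type letters, 7.13% the interferon-response type, 6.75% the AP-1 and 2.44% the PU.1-type letters, on either strand. No match overlapped another in these stretches.

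*Ccl2* and *Ccl12*, the monocyte chemoattractants MCP-1 and MCP-5 that act through *Ccr2*, lie close together at chr11:81849073-81850955 and chr11:81915347-81916902, both plus strand (mm9). *Ccl2* was at the edge of detection. Control mice had 0, 0, 0 and 1.73 FPKM and *Hdac1* cKO mice 0, 0.317, 0.284, 0.272 and 0, where the values above 0 in *Hdac1* cKO mice were 1 fragment each. In 5XFAD mice the lowest was 0, the median 0.510 and the highest 1.38 FPKM, and compound mice had 1.07, 1.48, 3.37, 1.36 and 1.25, from 2 to 6 fragments each. Every compound mouse thus had *Ccl2*, above every *Hdac1* cKO mouse, and 1 control mouse was higher than 4 of them. The log2 fold change of 1.16 in compound against *Hdac1* cKO mice had a limma adjusted p of 0.0131 (SE 0.21), but *Ccl2* entered that test only through the compound group. With no filter the adjusted p was 0.0177, and with the filter at 1 FPKM *Ccl2* was left out. In 5XFAD against control it was 0.23 (SE 0.34, adjusted p = 0.852), and in compound against 5XFAD 0.79 (95% interval 0.22 to 1.36, unadjusted p = 0.00986, adjusted p = 0.718).

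*Ccl12* had 10.1, 0.840, 5.23 and 6.28 FPKM in control and 1.84, 8.60, 1.54, 1.48 and 10.2 in *Hdac1* cKO mice. In 5XFAD mice it ran from 3.00 through a median of 12.6 to 17.1 FPKM. Compound mice fell into 3 high values, 34.7, 35.4 and 35.4, and 2 low ones, 7.73 and 4.53, which lay within the control range. Its log2 fold changes of 1.06 in 5XFAD against control (SE 0.57, adjusted p = 0.563), 2.04 in compound against *Hdac1* cKO (SE 0.75, adjusted p = 0.374) and 0.70 in compound against 5XFAD (95% interval -0.71 to 2.11, adjusted p = 0.834) did not pass. Among the 10 ligands *Ccl12* and *Ccl5* had the largest spread in compound mice, with coefficients of variation of 67.7% and 79.4%.

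*Cxcl10* (IP-10, an interferon-inducible ligand of *Cxcr3* on T cells) lies on chr5:92775664-92777915, minus strand (mm9). It was 0.342, 0.936, 2.59 and 0.932 FPKM in control and 0.227, 0.426, 0.764, 0.183 and 0.727 in *Hdac1* cKO mice. In 5XFAD mice it ran from 2.32 through a median of 4.49 to 5.50 FPKM, and compound mice had 2.51, 1.98, 3.63, 4.89 and 2.10. Control mouse 3 overlapped the 5XFAD range, while no *Hdac1* cKO mouse overlapped the compound range. Of the 5 compound mice only 2 were above control mouse 3, and compound against control gave 0.92 (limma adjusted p = 0.249). The rises were 1.31 in 5XFAD against control (SE 0.26, limma adjusted p = 0.0352) and 1.43 in compound against *Hdac1* cKO mice (SE 0.21, adjusted p = 0.00278). Compound against 5XFAD mice gave -0.39 (95% interval -0.85 to 0.07, adjusted p = 0.749).

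*Cxcl16*, a membrane-bound ligand of *Cxcr6* that can be shed, lies at chr11:70267485-70273486, minus strand (mm9), away from the CC cluster. Control mice had 0.683, 0.499, 2.46 and 0.466 FPKM and *Hdac1* cKO mice 0.0908, 1.11, 0.992, 0.659 and 0.349. In 5XFAD mice the values ran from 2.66 through a median of 3.06 to 3.91, a narrow range, and compound mice had 2.87, 2.11, 3.99, 5.00 and 1.77. 5XFAD mice were all above the control mice, with control mouse 3 at 2.46 FPKM next to the lowest 5XFAD mouse at 2.66. Of the 5 compound mice 3 were above control mouse 3, and compound against control gave 1.07 (limma adjusted p = 0.195). The rise was 1.12 in 5XFAD against control (SE 0.23, limma adjusted p = 0.0390) and 1.32 in compound against *Hdac1* cKO mice (SE 0.25, adjusted p = 0.0138), and compound and 5XFAD mice differed by -0.05 (95% interval -0.46 to 0.36).

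The calls of *Cxcl10* and *Cxcl16* in 5XFAD against control were near the threshold. With 5 ligands called, 7 of the 10 fits that each left out 1 mouse (control 1, 2 or 4, or 5XFAD 1, 2, 4 or 5) called 3, *Ccl3*, *Ccl4* and *Ccl6*. Without 5XFAD 6 the *Cxcl16* call was lost as well and 4 remained, so that *Cxcl16* lost its call in 8 of the 10 fits and *Cxcl10* in 7.

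*Cxcl12* (SDF-1, the homeostatic ligand of *Cxcr4* and *Ackr3*, made by endothelial cells and some neurons) lies on chr6:117118553-117131385, plus strand (mm9). It had the lowest coefficient of variation of the 10 in control, *Hdac1* cKO and compound mice, whereas in 5XFAD mice, at 21.8%, it varied more than *Ccl9* (12.6%), *Cxcl16* (13.8%) and *Ccl6* (14.97%). It was 24.4, 22.7, 25.0 and 21.9 FPKM in control and 19.8, 23.7, 19.3, 24.1 and 24.9 in *Hdac1* cKO mice. 5XFAD mice ran from 14.1 through a median of 20.1 to 26.0 FPKM, and compound mice had 21.4, 22.7, 19.5, 13.5 and 17.1. The 4 groups overlapped. Its log2 fold change was -0.22 in 5XFAD against control (95% interval -0.54 to 0.10), -0.25 in compound against *Hdac1* cKO (-0.55 to 0.05) and -0.11 in compound against 5XFAD mice (-0.46 to 0.24), none of which passed. In compound against control mice it was -0.32, with a 95% interval on the lower side only (-0.63 to -0.01). That difference did not pass either (limma unadjusted p = 0.0418, adjusted p = 0.448).

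**Figure D3:**
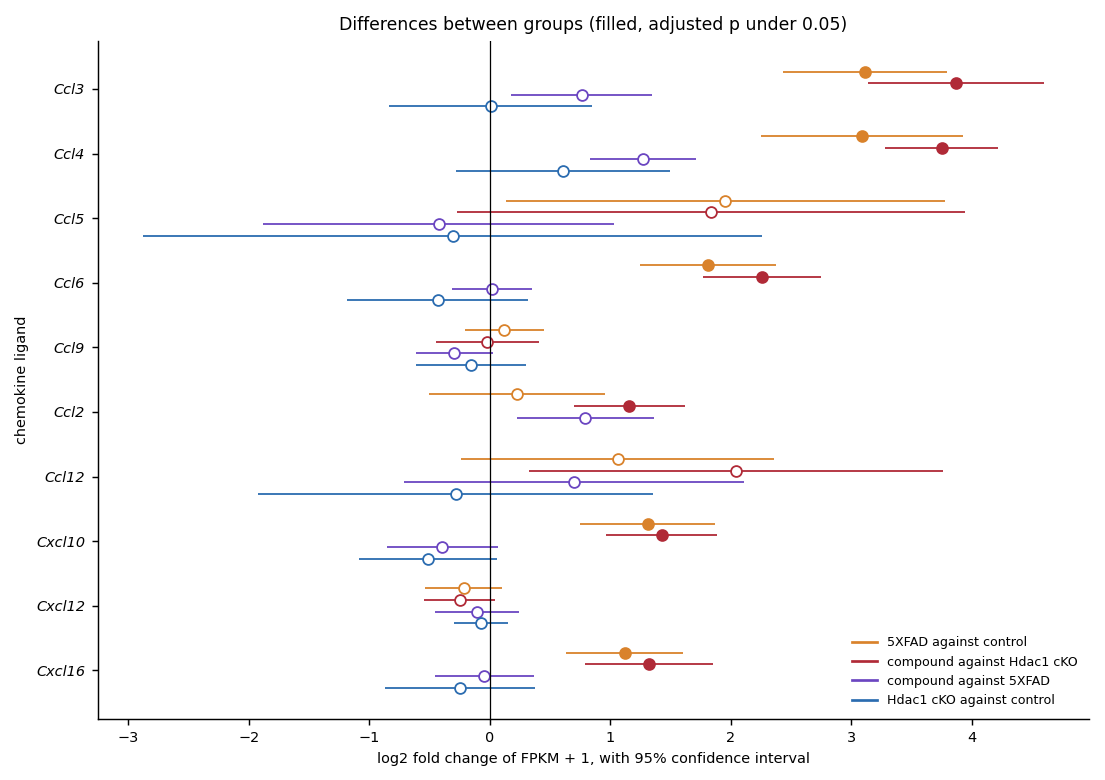
Log2 fold changes of FPKM + 1 (x axis) with 95% confidence intervals for each ligand (y axis) in 4 comparisons, filled where the limma adjusted p was under 0.05. The 5XFAD comparisons place *Ccl3* and *Ccl4* above 3, whereas in compound against 5XFAD mice only the intervals of *Ccl2*, *Ccl3* and *Ccl4* exclude 0 and no point is filled. *Ccl2* was not tested in *Hdac1* cKO against control.

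No ligand passed the test for *Hdac1* loss without 5XFAD. In *Hdac1* cKO against control mice, log2 fold changes of the 9 ligands tested ran from -0.51 for *Cxcl10* (95% interval -1.08 to 0.06) to 0.61 for *Ccl4* (SE 0.40), with a median of -0.25 and adjusted p between 0.489 and 0.998. For *Cxcl12* the interval was -0.30 to 0.15, but for *Ccl5* it was -2.88 to 2.26 on the log2 scale. *Ccl2* was below the mean of 0.5 FPKM needed for the test. Whether 5XFAD acted differently on the ligands with and without *Hdac1* was tested by the interaction term over all 20 mice. None of the 10 ligands passed at an adjusted p of 0.05 (0% of 14389 genes), and *Ccl2* alone passed the thresholds of the study, with an interaction of 0.93 (SE 0.42, unadjusted p = 0.0354, adjusted p = 0.525), beside 2.69% of all genes, and it passed the filter only through the compound group, where it was high. For *Ccl3* and *Ccl4* the interactions were 0.76 (95% interval -0.28 to 1.80) and 0.66 (-0.31 to 1.63).

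Microglia markers rose with the ligands, so their values are given beside them. The 12 microglia markers summed to 370 to 451 FPKM in control, 387 to 468 in *Hdac1* cKO, 1014 to 1393 in 5XFAD and 1289 to 2533 in compound mice. Of the 12, 8 were called higher in 5XFAD against control and 7 in compound against *Hdac1* cKO, beside 0.667% and 1.42% of all genes tested. None was called in compound against 5XFAD, where 1 gene of 14326 was called (0.00698%). There, 11 of the 12 markers had a positive log2 fold change, with a median of 0.22. In bulk tissue more cells of a type and more RNA per cell cannot be told apart. Each ligand was therefore also expressed per 100 FPKM of summed microglia markers in the same library, a ratio chosen after the values were seen, with exact permutation tests that were not adjusted (10 ligands in 5 comparisons).

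*Ccl3* was still 8.15-fold higher in 5XFAD (0.989 ± 0.350, n = 6) than in control mice (0.121 ± 0.144, n = 4) and 8.20-fold higher in compound (1.25 ± 0.305, n = 5) than in *Hdac1* cKO mice (0.152 ± 0.234, n = 5), without overlap in either. Single libraries carry much of both low means, and the ratios were 19.0-fold without control 3 and 21.7-fold without *Hdac1* cKO 4. *Ccl4* was 4.91-fold higher in 5XFAD than in control mice (exact permutation p = 0.0190, with control 4 overlapping and the other 3 control mice at 0, so that no ratio can be given without control 4) and 6.29-fold higher in compound than in *Hdac1* cKO mice (no overlap). For *Ccl6*, *Cxcl10* and *Cxcl16*, 5XFAD mice had 1.21, 1.24 and 1.08 times the control ratio, with overlapping groups (exact permutation p = 0.381, 0.543 and 0.952). Without control 3 the ratios of *Cxcl10* and *Cxcl16* were 1.87 and 1.86. *Ccl2*, *Ccl5* and *Ccl12* were at 0.414, 1.01 and 0.708 of the control ratio, with overlap (exact permutation p from 0.381 to 1), and control 4 is the only control mouse with *Ccl2* above 0. The *Ccl5* ratio rested on control 3 and was 2.75 without it. In compound against *Hdac1* cKO mice *Ccl2*, *Ccl5*, *Ccl12*, *Ccl6*, *Cxcl10* and *Cxcl16* overlapped, at 0.883 to 2.84 times the *Hdac1* cKO ratio (exact permutation p from 0.0556 to 0.944). The lowest, *Ccl5* at 0.883, turned to 1.51 without *Hdac1* cKO 4. *Ccl12* was at 1.23, and at 1.85 without *Hdac1* cKO 5. *Ccl9* and *Cxcl12*, whose FPKM was not called in any of these comparisons, were at 0.372 and 0.290 of the control ratio in 5XFAD mice (exact permutation p = 0.00952 each) and at 0.241 and 0.229 of the *Hdac1* cKO ratio in compound mice (exact permutation p = 0.00794 each), without overlap. The ratios of mean FPKM were 1.12 for *Ccl9* and 0.870 for *Cxcl12* in 5XFAD against control mice. In compound against *Hdac1* cKO mice they were 0.957 and 0.843. The parts of the ligand and of the marker sum in the lower ratios per marker were not tested.

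Between compound and 5XFAD mice, *Ccl4* per marker was 1.80 ± 0.762 (n = 5) against 0.910 ± 0.229 (n = 6), a 1.98-fold ratio (exact permutation p = 0.0130) in which the groups overlapped, and *Ccl3* was 1.25 ± 0.305 against 0.989 ± 0.350 (exact permutation p = 0.225). With 1 library left out, the *Ccl4* ratio ran from 1.64 (without compound 3) to 2.19 (without compound 4). Of the other 8 ligands, *Ccl9* was at 0.542 of the 5XFAD ratio without overlap (exact permutation p = 0.00433), and *Ccl6* and *Cxcl10* were at 0.755 and 0.514 with overlap (exact permutation p = 0.0303 and 0.0260). *Ccl2*, *Ccl5*, *Ccl12*, *Cxcl12* and *Cxcl16* lay between 0.580 and 2.32 times the 5XFAD ratio (exact permutation p from 0.0606 to 0.394). The FPKM of *Ccl9*, *Ccl6* and *Cxcl10* was not called in this comparison, with ratios of mean FPKM of 0.745, 1.03 and 0.714. The summed marker FPKM that divides it was 1691 ± 518 in compound against 1225 ± 139.6 in 5XFAD mice. Whether the number of microglia or their RNA content accounts for the FPKM differences was not tested.

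**Figure D4:**
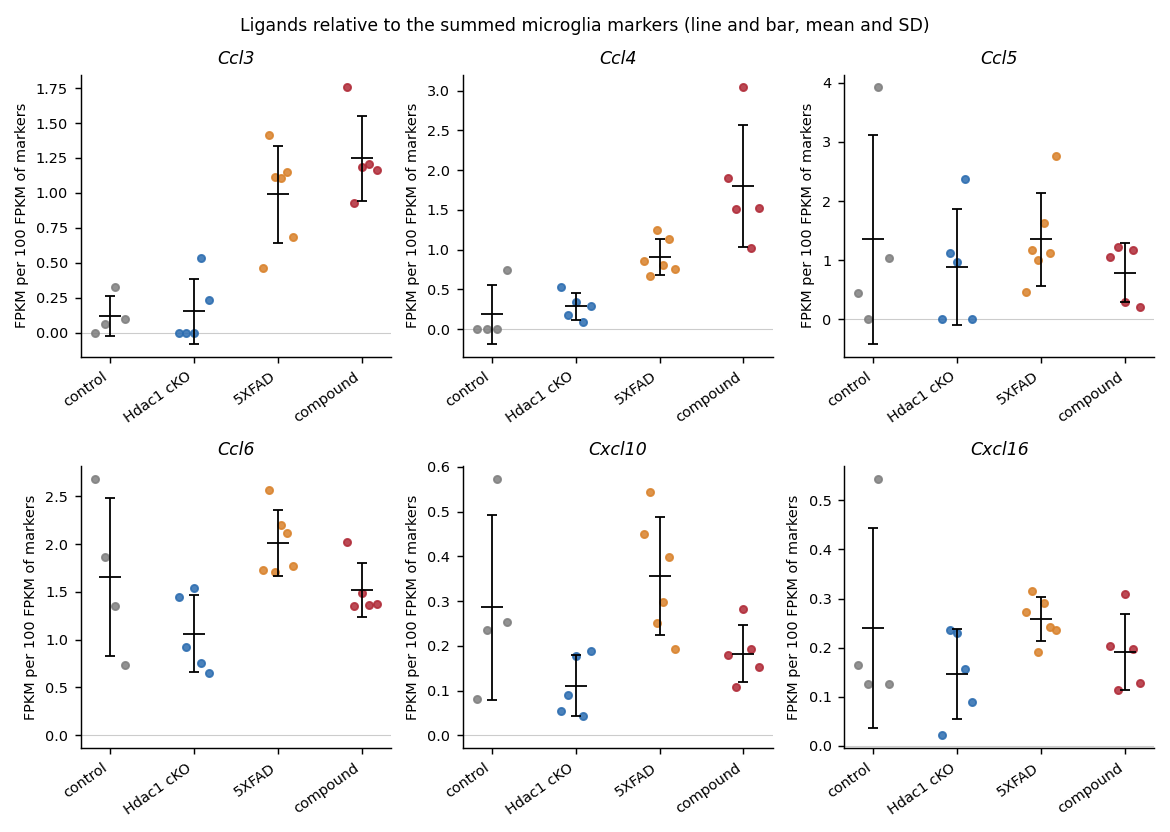
FPKM of 6 ligands per 100 FPKM of summed microglia markers (y axis, linear) in each hippocampal mouse (points) by group (x axis), with the mean and SD. Of the 6, *Ccl3* alone separates 5XFAD from control mice without overlap. For *Ccl4*, control 4 overlaps the 5XFAD mice and the other control mice are at 0, and *Ccl5*, *Ccl6*, *Cxcl10* and *Cxcl16* overlap.

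Markers of other cell types were examined beside the ligands. The 7 astrocyte markers summed to 932 to 1047 FPKM in control, 942 to 1062 in *Hdac1* cKO, 1049 to 1211 in 5XFAD and 1133 to 1274 in compound mice. Of the 7, *Gfap*, the intermediate filament of reactive astrocytes, was called higher in 5XFAD against control (97.5 ± 15.4 against 25.1 ± 1.40 FPKM, a log2 fold change of 1.90, limma adjusted p = 1.86e-06), and *Gfap* and *Aqp4*, a water channel of astrocyte endfeet, in compound against *Hdac1* cKO mice (1.97 and 0.86). In compound against 5XFAD mice none was called, and *Aqp4* was 56.4 ± 14.6 against 29.4 ± 7.18 FPKM without overlap (0.91, unadjusted p = 0.000131, adjusted p = 0.234). The 8 endothelial and mural cell markers summed to 68.3 to 148 FPKM over the hippocampal libraries, and none was called. The part of astrocytes in the ligand differences was not tested. The 9 T and NK cell markers summed to at most 6.70 FPKM in any hippocampal library, and *Cd3e*, *Cd2* and *Klrb1c* were at 0 in all control and all *Hdac1* cKO libraries. *Nkg7*, of cytotoxic lymphocytes, was the 1 called of 2 tested, with 2.76 ± 1.57 FPKM in compound and 0.345 ± 0.317 in *Hdac1* cKO mice (n = 5 each, limma adjusted p = 0.0142), and control mice had 1.45 ± 1.83 (n = 4). With a mean under 0.5 FPKM in *Hdac1* cKO mice, it passed the filter only through the compound group, where it was high. The 5 perivascular macrophage markers summed to 1.18 to 5.65 FPKM. Choroid plexus markers varied by library, from 56.1 to 20447 FPKM, and were high in 3 of 4 control libraries, in 4 of 6 5XFAD libraries and in compound mouse 1, while *Hdac1* cKO mice had 59.8 to 1632. With these markers as a covariate, added after they were seen, 3 ligands, *Ccl3*, *Ccl4* and *Ccl6*, remained called in 5XFAD against control, 6 in compound against *Hdac1* cKO, 2 in compound against control and 0 in compound against 5XFAD mice. The fold changes of the ligands that lost the call stayed close to those without the covariate, at 1.37 for *Cxcl10* and 1.12 for *Cxcl16* in 5XFAD against control and 1.74 for *Ccl6* in compound against control. The part of T cells and perivascular macrophages in the differences was not tested.

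Several receptors of the ligands were near their floor. *Ccr1*, *Ccr2*, *Ccr3*, *Cxcr3* and *Cxcr6* were below 1 FPKM in every hippocampal library. *Ackr3*, the scavenging receptor of *Cxcl12*, had 5.01, 4.90, 5.98, 5.83 and 6.19 FPKM in *Hdac1* cKO mice and 2.81, 2.91, 2.00, 4.41 and 3.40 in compound mice, and fell by 0.70 on the log2 scale between them (limma adjusted p = 0.0434). Against control mice, which had 4.02, 3.90, 2.69 and 2.51, the *Hdac1* cKO mice were higher without overlap by 0.64 (SE 0.15), with an adjusted p of 0.133. *Cxcr4*, the signalling receptor of *Cxcl12*, was at most 1.28 FPKM.

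Other genes of the pathway were counted over whole lists. Of 30 other chemokine ligands, 10 passed the filter in 5XFAD against control, and 1 was called higher, *Cxcl5*, which draws neutrophils, with 6.79 ± 1.57 FPKM (n = 6) against 1.78 ± 1.05 (n = 4, limma adjusted p = 0.0128). It was also the 1 called among 9 in compound against *Hdac1* cKO mice, at 7.77 ± 2.90 against 1.12 ± 0.444 FPKM (adjusted p = 0.000289). *Cxcl13*, a B-cell attractant, was called lower in *Hdac1* cKO against control mice, 0.0425 ± 0.0951 (n = 5) against 2.31 ± 1.38 FPKM (n = 4, adjusted p = 0.0315). It was listed at 0 in 4 of the 5 *Hdac1* cKO libraries and passed the filter only through the control group, where it was high. Of 16 other chemokine receptors 6 were tested, and *Cx3cr1*, the microglial receptor of the neuronal ligand *Cx3cl1*, was called higher in 5XFAD against control (25.6 ± 2.19 against 12.8 ± 1.62 FPKM, adjusted p = 0.000420). None of the 3 chemokine-cutting proteases tested was called in any hippocampal comparison. Among 16 inducing cytokines and NF-κB genes, 9 were tested in 5XFAD against control and none was called, and *Tlr2* was the 1 called of 8 in compound against *Hdac1* cKO mice (adjusted p = 0.00935), where its mean of 0.135 FPKM in *Hdac1* cKO mice let it pass the filter only through the compound group. Of 12 interferon-response genes, which like *Cxcl10* respond to interferon, 1 was called in 5XFAD against control, *Ifit3* at 6.07 ± 1.93 against 1.89 ± 0.749 FPKM (adjusted p = 0.0192), and 1 in compound against *Hdac1* cKO, *Irf8* (adjusted p = 0.000874). In compound against 5XFAD mice none of these lists held a call.

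How the ligands varied together among mice of the same group depended on which libraries were used. After each group's mean was removed, 21 of the 45 pairs of ligands had a positive Pearson r over the 20 libraries, with a median of -0.01, and 28 of 45 over the 11 libraries with 5XFAD, with a median of 0.163. Over the 20, *Cxcl10* and *Cxcl16* were the closest pair at r = 0.692, and *Ccl2* and *Ccl6* the most opposed at -0.604. Over the 11, *Ccl3* and *Ccl6* were the closest at 0.830 (-0.0985 over the 20), followed by *Ccl5* and *Ccl6* at 0.746 (0.107), and *Ccl2* and *Ccl3* the most opposed at -0.692 (-0.352). *Ccl3* and *Ccl4* had r = -0.175 over the 20 and 0.163 over the 11. These correlations are descriptions, since the libraries share depth and composition and low ligands rest on few fragments.

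The genes most like each ligand were sought the same way among 12995 genes, over the 20 libraries. For *Ccl6* the closest was *Cd68*, a lysosomal marker of macrophages and microglia, at r = 0.871, followed by *Ubxn6* (0.748) and *Nol12* (0.740). *Ccl3* was closest to *Vasp* (0.834), *Slco3a1* (0.769) and *Ccdc80* (0.759), and *Ccl4* to *Nppa* (0.794), *Snurf* (0.753) and *Fam175a* (0.744). *Cxcl10* and *Cxcl16* shared *Pcx* among their 3 closest genes (0.836 and 0.848), beside *H13* (0.853) and *Wrap53* (0.817) for *Cxcl10*, and *Mrpl4* (0.820) and *Fam86* (0.779) for *Cxcl16*. *Cxcl12* was closest to *Nrn1* (0.813), *Clvs2* (0.804) and *Rxfp3* (0.778), and *Ccl5* to *Rpl22* (0.778), *Trmt61b* (0.774) and *Fastkd5* (0.769). For *Ccl9* they were 1810014B01Rik (0.802), *Prr11* (0.781) and *Zfp85os* (0.755), and for *Ccl12* *Zfp52* (0.784), *Ccnl1* (0.777) and *Reps2* (0.759).

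In GFAP+ nuclei the order of the ligands is given on its own, since region and library method both differed from those of the hippocampal libraries. *Cxcl12* was 7.88, 11.5 and 12.5 FPKM in control and 10.1, 7.83, 6.14 and 9.39 in *Hdac1* cKO nuclei. *Ccl9* was second by group mean, at 3.56 to 5.04 FPKM in control and 3.98 to 4.41 in *Hdac1* cKO nuclei. In GFAP+ control 1 and GFAP+ *Hdac1* cKO 1, however, *Cxcl10* was above *Ccl9*. *Cxcl10* ran from 1.75 to 5.71 and from 0.324 to 5.40 FPKM. The microglia-associated ligands *Ccl3*, *Ccl4* and *Ccl6* were at or below 1.55 FPKM in all 7 libraries and were listed at 0 in several, while the microglia markers summed to 55.1 to 160 FPKM, beside at least 370 in whole hippocampus. Of the 6 ligands tested none was called in *Hdac1* cKO against control nuclei (2 of 15070 genes were called, 0.0133%), with log2 fold changes from -0.56 for *Ccl12* (95% interval -1.64 to 0.51) to about 0 for *Ccl9* (-0.44 to 0.44). With 4 against 3 libraries an exact permutation test cannot go below p = 0.0571.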

How the data were processed

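RNA was measured in 20 hippocampal libraries, made with a 3′ digital gene expression method, and in 7 libraries of sorted GFAP+ cortical nuclei. The authors aligned reads with Tophat2 and computed the deposited FPKM values with Cufflinks 2.0.0 on the mm9 annotation. Of the 34 samples, 7 were left out: 1 GFAP+ control (number 2), not analysed here, and 6 from ChIP-seq.

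Groups were taken from the labels. Values were transformed to log2(FPKM + 1), genes with a mean under 0.5 FPKM over the groups compared were left out, and limma 3.58.1 (R 4.3.3) with its trend and robust options was fitted to the groups compared, with Benjamini-Hochberg adjustment over all genes tested. Fold changes are on that scale, which understates the change of low genes. Two-sided exact permutation tests of single ligands, and the summaries, used Python 3.11.15 with scipy 1.17.1. The scripts were tested on simulated data. Each low FPKM value was compared with what 1 fragment contributes, and the limit for a count of 0 was 3 fragments.

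All 10 ligands were named, with receptors of theirs (1 receptor is not reported here). From the other lists, genes with an adjusted p under 0.05 were named, and for each ligand at a mean of 1 FPKM or more the 3 genes with the highest correlation. Ligands and lists were chosen with earlier results of these data known. Alternatives were another pseudocount (0.1), other filters, quantile and median scaling, 1 fit of all groups, no trend or robust options, a replicate block and leaving out each library. The replicate block left out libraries whose replicate number was missing from another group compared. The choroid plexus covariate, the ratios with each library left out and the ratio to microglia markers were chosen after seeing the data.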

Additional observations from a re-analysis of the deposited data

Results flagged for a closer look

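Values that stood far from the rest of their group were looked for in 50 groups of 4 to 6 libraries (10 ligands in 5 groups), and 6 were found. About 1 group in 20 is expected by chance, but that rate does not hold for ligands listed at 0, and in 4 of the 6 every other library of the group was at 0. *Ccl2* was 1.73 FPKM in control 4, with the other control libraries at 0, and 3.37 in compound 3. *Ccl4* was 2.74 FPKM in control 4, again with the others at 0. *Cxcl16* was 2.46 FPKM in control 3. In GFAP+ *Hdac1* cKO nuclei, *Ccl3* was 0.165 FPKM in library 3 and *Ccl4* 0.249 in library 4, each the 1 library of its group above 0.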

How the results depend on the processing

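In 5XFAD against control, 5 ligands were called, 3 with no filter, 3 without the trend and robust options and 3 with the choroid plexus covariate (*Ccl3*, *Ccl4* and *Ccl6* each time), and 3 to 5 when 1 library was left out. The cause was not tested. The replicate numbers did not pair the libraries (same-number r between -0.113 and 0.0762), and the replicate block left 2 calls, *Ccl3* and *Ccl4*, with log2 fold changes of 1.82 for *Ccl6*, 1.41 for *Cxcl10* and 1.15 for *Cxcl16*, no smaller than without it. The block used only replicate numbers present in every group compared, so 5XFAD 5 and 6 were left out of this fit. Blocking and the smaller number of libraries cannot be told apart in it. Compound against *Hdac1* cKO kept its 6 calls except with the filter at 1 FPKM, which leaves *Ccl2* out. Compound against control ran from 2 to 4, with *Ccl6* lost under the block (1.92, adjusted p = 0.160), the covariate (1.74, 0.254), no trend or robust options (1.83, 0.0530; 1.83 in the fit reported) and without control 2 or 3 or compound 1, 2 or 4. Compound against 5XFAD had 0 to 1 call when 1 library was left out, *Ccl4* without 5XFAD 3.

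Under the alternatives other than leaving out each library in turn, 531 log2 fold changes kept direction and side of the threshold. Another 12 lost a call, 1 gained one (*Cxcl16*, compound against control, all groups in 1 fit) and 15 turned sign. In compound against 5XFAD, *Ccl6* was -0.0167 with the replicate block. In *Hdac1* cKO against control, *Ccl3* was -0.41 with a pseudocount of 0.1 and -0.0912 with the block, *Ccl5* 0.11 with the block and *Cxcl10* 0.25 with the covariate. In GFAP+ nuclei, *Ccl9* was 0.000472 with the pseudocount of 0.1, 0.0228 with quantile normalization, 0.00919 with median scaling and 0.0187 with the block, and *Cxcl10* was 0.31 with the covariate. The interaction was -0.97 for *Ccl4* and 0.21 for *Ccl5* with the pseudocount of 0.1, and 0.13 for *Ccl5*, 0.00278 for *Ccl9* and 0.19 for *Cxcl12* with the block. None of these passed the threshold, and the cause was not tested.

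Leaving out 1 library also turned signs. *Ccl9* ran from -0.000822 to 0.18 in 5XFAD against control and from -0.12 to 0.0886 in compound against *Hdac1* cKO. In compound against 5XFAD, *Ccl6* ran from -0.10 to 0.11, *Cxcl12* from -0.20 to 0.00257 and *Cxcl16* from -0.19 to 0.0857. In *Hdac1* cKO against control, *Ccl3* ran from -0.16 to 0.14, *Ccl5* from -0.98 to 0.43, *Ccl12* from -0.81 to 0.0539 and *Cxcl16* from -0.37 to 0.0422. In GFAP+ nuclei, *Ccl5* ran from -0.45 to 0.26, *Ccl9* from -0.10 to 0.11 and *Cxcl10* from -0.74 to 0.0566. The interaction ran from -0.86 to 0.55 for *Ccl5*, -0.15 to 0.32 for *Cxcl10*, -0.13 to 0.0765 for *Cxcl12* and -0.0878 to 0.33 for *Cxcl16*. Depth limits *Ccl2* most, at 41 fragments in all.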
